A study of Mus musculus with 4 samples.

Results

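The insulin-like growth factor (IGF) axis was followed in AML12 cells through 10 genes, taken as the rows of the deposited table whose symbol was Igfbp1 to Igfbp7, Igf1, Igf1r or Insr. Each symbol matched 1 row, so 10 of the 52192 genes in the table were used. AML12 is a mouse hepatocyte line. Short hairpin RNAs were delivered by lentivirus, a control hairpin in 2 libraries (shCtrl) and one against Safb in 2 others (shSafb), and cells were collected on day 5. All 4 libraries came from cells kept in DMEM/F12 with 10% fetal bovine serum, 0.1 μM dexamethasone, which is a glucocorticoid, and an ITS supplement, which supplies insulin, transferrin and selenium. Both groups were therefore exposed to insulin and to serum factors. The labels name 1 hairpin per group. Separate cultures are not stated for the replicates, so the spread behind every p-value may be purely technical.

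IGF1 is a secreted growth factor that signals through the receptor tyrosine kinase encoded by Igf1r. Insr encodes the closely related insulin receptor. Both receptors act through insulin receptor substrates, phosphoinositide 3-kinase and AKT, and AKT keeps FOXO transcription factors out of the nucleus. The binding proteins IGFBP1 to IGFBP6 hold IGFs in the extracellular fluid with high affinity and control how much reaches the receptor, while IGFBP7 binds IGFs weakly. Hepatocytes are the main source of circulating IGF1, and Igfbp1 is a liver gene that FOXO factors activate and insulin represses.

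The promoters of 4 binding protein genes are shown because these genes lay far apart in level: Igfbp7 and Igfbp4 were abundant, Igfbp3 was low, and Igfbp1 was at or near 0 although it is the neighbour of Igfbp3 on chromosome 11. Each line holds the 250 bases before the RefSeq start site on GRCm38.p6, 5′ to 3′ on the gene's strand, with CpG dinucleotides in capitals.
Igfbp7 promoter, chr5:77408046-77408295, minus strand: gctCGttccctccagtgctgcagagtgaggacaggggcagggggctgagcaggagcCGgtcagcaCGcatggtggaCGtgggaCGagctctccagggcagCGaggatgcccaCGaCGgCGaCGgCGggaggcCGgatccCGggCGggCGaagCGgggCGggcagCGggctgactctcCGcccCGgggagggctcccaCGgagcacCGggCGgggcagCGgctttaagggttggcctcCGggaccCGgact
Igfbp4 promoter, chr11:99040994-99041243, plus strand: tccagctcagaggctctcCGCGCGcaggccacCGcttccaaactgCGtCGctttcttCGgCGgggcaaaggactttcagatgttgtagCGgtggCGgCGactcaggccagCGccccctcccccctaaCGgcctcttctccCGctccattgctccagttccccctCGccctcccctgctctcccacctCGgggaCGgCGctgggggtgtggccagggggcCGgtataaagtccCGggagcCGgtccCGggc
Igfbp3 promoter, chr11:7213924-7214173, minus strand: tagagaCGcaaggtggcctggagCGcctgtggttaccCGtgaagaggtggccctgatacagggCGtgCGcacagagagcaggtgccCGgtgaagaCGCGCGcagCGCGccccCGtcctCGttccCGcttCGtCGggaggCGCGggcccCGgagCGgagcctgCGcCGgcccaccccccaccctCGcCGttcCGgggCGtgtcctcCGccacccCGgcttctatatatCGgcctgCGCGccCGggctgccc
Igfbp1 promoter, chr11:7197537-7197786, plus strand: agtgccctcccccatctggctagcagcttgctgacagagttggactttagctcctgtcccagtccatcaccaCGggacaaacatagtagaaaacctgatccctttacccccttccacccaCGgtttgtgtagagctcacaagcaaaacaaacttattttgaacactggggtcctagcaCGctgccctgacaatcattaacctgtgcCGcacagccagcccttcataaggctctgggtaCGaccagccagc
The Igfbp7 window held 26 CpG dinucleotides, that of Igfbp4 22, that of Igfbp3 32 and that of Igfbp1 5. The median over all 32851 promoter windows of that length was 6. Windows were found for 9 of the 10 genes (not Insr). That of Igf1r held 42 CpG, that of Igfbp5 10, that of Igfbp6 7, that of Igf1 5, and the 2 windows of Igfbp2 held 14 and 11. The 4 genes with more than 20 CpG were all above 1 TPM (RNA abundance corrected for gene length, with every library set to the same total) in every library. The share of all genes with such windows that were above 1 TPM was not taken, so a link of CpG to level was not tested. Igf1, with 5, was also above 1 TPM. The RefSeq start sites did not always match the gene starts given below. The Igf1 window (chr10:87860861-87861110, plus strand) lay inside the gene span, which starts at 87858265. The Igfbp2 window with 11 CpG (chr1:72825137-72825386) also lay inside its gene span. The Igf1r window ended at 67952256, before the gene start at 67952827, and the Igfbp6 window at 102144185, before the start at 102144362.

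Insulin response elements are built on the letters CAAAACA or CAAAATA, and these were searched on both strands. Of the 9 genes with a window, Igfbp1 alone held either, with 1 copy of each in opposite orientations, the first starting 108 bases before the start site. Of all windows, 9.14% held at least 1 of these motifs. GTAAACA, which is 1 form of the FOXO motif and not the only one, was searched on both strands. It was in no window of the 9 genes and in 3.17% of all windows, which does not show that FOXO sites are absent. The TATA motif TATAAA, searched on the gene's strand, was in the Igfbp4 window alone of the 9 and in 7.59% of all windows. The stretch of Igfbp1 with the insulin response letters in capitals is given because Igfbp1 is a classic insulin-repressed gene. A match is only a run of letters.
Igfbp1 insulin response letters, chr11:7197669-7197705, plus strand: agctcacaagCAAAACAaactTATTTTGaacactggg

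The knockdown was partial. Safb, whose product is a nuclear matrix protein, was at 23.8 and 23.3 TPM in shCtrl and at 15.8 and 15.02 TPM in shSafb. The libraries had 12946 to 13117 genes at 1 TPM or more. TPM keeps no read totals, so the depth is unknown. Of the hepatocyte markers, 9 of 10 averaged at least 1 TPM, with Asgr1 the exception (at most 0.233 TPM), and their summed level was 5477 to 5624 TPM in shCtrl and 9575 to 9623 TPM in shSafb. That rise was carried by Trf, the transferrin gene (2453 and 2418 against 6814 and 6778 TPM). Without Trf the sum was 3172 and 3059 TPM in shCtrl and 2808 and 2798 TPM in shSafb, and the genes left went both ways. Alb (378 and 345 against 122 and 127 TPM) and Apoa1 (56.4 and 56.4 against 28.2 and 28.1 TPM) were lower in shSafb. Serpina1a (81.3 and 77.4 against 131 and 130 TPM) and Fgb (1.57 and 2.49 against 7.18 and 7.59 TPM) were higher. Of the markers of other liver cells, 0 of 6 endothelial, 1 of 9 stellate or fibroblast, 2 of 6 macrophage and 5 of 6 cholangiocyte genes averaged at least 1 TPM. Cdh5, Kdr, Lyve1, Lum, Adgre1 and Clec4f were listed at 0 in every library, and Epcam at 0 in 3 of 4.

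Binding protein RNA in these cells was almost entirely Igfbp7 and Igfbp4. Together they made up 99.6% to 99.7% of the summed TPM of the 7 binding protein genes in each library. In shCtrl the order was Igfbp7, Igfbp4, Igf1r, Insr, Igfbp3, Igf1 and Igfbp6, with no overlap between neighbours in the 2 libraries. In shSafb the values of Igfbp7 and Igfbp4 overlapped, so the order of these 2 genes did not differ beyond their spread. The rest of the order was the same in shSafb.

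**Figure D1:**
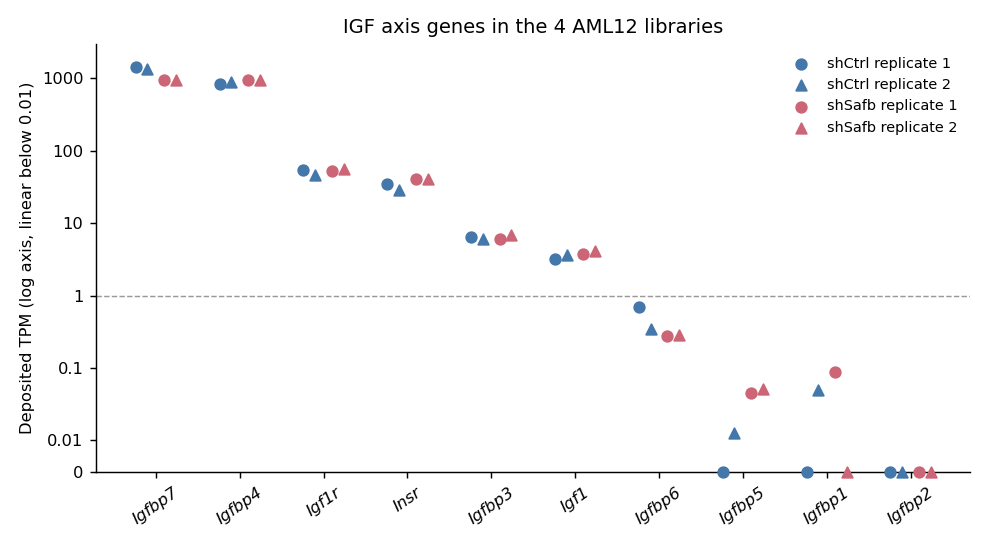
Deposited TPM of the 10 genes (x axis) in each library (y axis, log scale, linear below 0.01 TPM); colour gives the group, marker shape the replicate, and the dashed line 1 TPM. Igfbp7 and Igfbp4 lie at 829 to 1432 TPM, while Igfbp6, Igfbp5, Igfbp1 and Igfbp2 lie under 1 TPM in all 4 libraries.

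Igfbp7 fell in the knockdown, and it was the gene of the 10 with the clearest change. IGFBP7 is a secreted protein of the extracellular matrix. Its RNA was at 1432 and 1341 TPM in the shCtrl libraries and at 957 and 965 TPM in the shSafb libraries. Both shSafb values lay below both shCtrl values. The mean went from 1387 ± 64.1 to 961 ± 5.32 TPM (SD, n = 2 each), which is 1.44-fold lower. The log2 change, shSafb minus shCtrl on log2(scaled TPM + 1), was -0.50 ± 0.04 (SE; limma, Benjamini-Hochberg adjusted p = 0.00138), with a 95% interval from -0.60 to -0.40. Of the 13111 tested genes, 28.6% had a larger change in either direction. Among all genes, Igfbp7 ranked 62 and 70 by TPM in shCtrl and 102 and 98 in shSafb. The call was kept without each library in turn, and the change is smaller than a 1.5-fold threshold would require.

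Igfbp7 (ENSMUSG00000036256) lies on the minus strand of chromosome 5 from 77349240 to 77408041 on GRCm38 (mm10). Its last 85 exonic bases are shared with the opposite-strand gene Polr2b, which encodes a subunit of RNA polymerase II (use of strand in the counting: not given in the sources used here). The shared part is 7.03% of the 1209 exonic bases of Igfbp7. Polr2b was at 53.4 and 51.7 TPM in shCtrl and 60.8 and 62.2 TPM in shSafb, and so was higher where Igfbp7 was lower. IGFBP7 is also made by endothelial and stellate cells. The endothelial marker list summed to 0.123 and 0.153 TPM in shCtrl and 0.0196 and 0.134 TPM in shSafb, and the stellate and fibroblast list to 3.06 and 3.11 against 2.89 and 3.55 TPM. The macrophage list, nearly all of it Cd14, summed to 121 and 117 TPM in shCtrl and 66.6 and 68.6 TPM in shSafb, and the cholangiocyte list to 1710 and 1669 against 1540 and 1605 TPM. The sums of these 2 lists were lower in shSafb, but their genes went both ways. In the cholangiocyte list Spp1 was lower in shSafb (1108 and 1101 against 610 and 671 TPM). Krt19 was higher (320 and 320 against 676 and 679 TPM). In the macrophage list Cd14 was lower (120 and 115 against 63.8 and 65.5 TPM). Csf1r was higher (0.239 and 0.450 against 1.92 and 1.72 TPM). The part of either list in the Igfbp7 result was not tested. In RNA from whole cultures, fewer cells of a type and less RNA per cell cannot be told apart.

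Igfbp4, whose product binds IGFs and is cut by the protease PAPP-A, was the second abundant binding protein gene. It was at 829 and 894 TPM in shCtrl and at 959.7 and 957 TPM in shSafb. Both shSafb values lay above both shCtrl values, and shCtrl replicate 2 lay about midway between shCtrl replicate 1 and the shSafb libraries. The means were 862 ± 45.6 and 959 ± 1.61 TPM (SD, n = 2 each), 1.11-fold apart. The log2 change of 0.18 ± 0.06 did not pass the threshold (limma adjusted p = 0.0823), with a 95% interval from 0.01 to 0.35. It passed only without shCtrl replicate 2 (adjusted p = 0.0232; 0.0232 to 0.22 over 14 alternatives). The gene (ENSMUSG00000017493) lies on the plus strand of chromosome 11 from 99041244 to 99054392.

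The balance of these 2 RNAs differed between the groups. Igfbp7 made up 63.1% and 59.8% of the summed binding protein TPM in shCtrl and 49.8% and 50.0% in shSafb. The ratio of Igfbp7 to Igfbp4, both per length, was 1.73 and 1.5 in shCtrl and 0.997 and 1.01 in shSafb. A ratio within a library does not depend on the scaling between libraries, and it shows unequal change, not which of the 2 RNAs moved. The groups did not overlap. The exact two-sided permutation test of 2 against 2 libraries gives 0.333 at the least, which is the value found here. It could therefore not fall under 0.05 whatever the ratios were, and it decides nothing. The summed TPM of the 7 binding protein genes was 2268 and 2242 in shCtrl and 1923 and 1929 in shSafb.

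**Figure D2:**
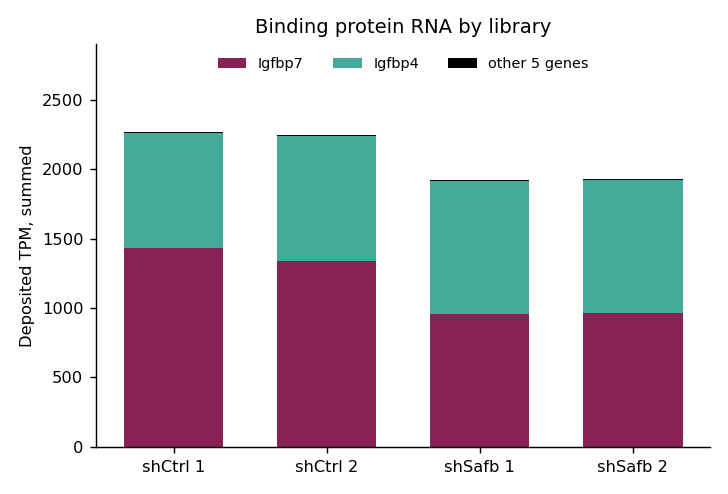
Summed deposited TPM (y axis, from 0) of the binding protein genes in each library (x axis), with Igfbp7, Igfbp4 and the sum of the other 5 genes stacked. The total is lower in both shSafb libraries (1923 and 1929 against 2268 and 2242 TPM), and the Igfbp7 part is smaller there.

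Igfbp3 encodes the main carrier of circulating IGFs. It was low and did not pass the test, at 6.50 and 6.03 TPM in shCtrl and 6.01 and 6.97 TPM in shSafb. The groups overlapped. The log2 change was 0.06 ± 0.11 (limma adjusted p = 0.653), with a 95% interval from -0.22 to 0.35, and it turned to -0.020 without shSafb replicate 2. Igfbp3 (ENSMUSG00000020427) lies on the minus strand of chromosome 11 from 7206086 to 7213923. Its neighbour Igfbp1 (ENSMUSG00000020429, 7197782 to 7202546, plus strand) is 3539 bases away, and the 2 genes point towards each other.

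Igfbp1 was listed at 0 in shCtrl replicate 1 and shSafb replicate 2, at 0.0489 TPM in shCtrl replicate 2 and at 0.0886 TPM in shSafb replicate 1. The other convergent pair, Igfbp2 and Igfbp5 on chromosome 1, lies 5457 bases apart and was silent or nearly so. Igfbp2 (72824503 to 72852474, plus strand), a second IGF carrier made by liver, was listed at 0 in all 4 libraries. Igfbp5 (72857932 to 72874884, minus strand), which also binds matrix, was listed at 0 and 0.0127 TPM in shCtrl and at 0.0450 and 0.0508 TPM in shSafb. Igfbp6, which prefers IGF2, was at 0.691 and 0.342 TPM in shCtrl and 0.273 and 0.288 TPM in shSafb. Both shSafb values of Igfbp6 lay below those of shCtrl, but the shCtrl libraries differed from each other more than shCtrl replicate 2 did from shSafb. It lies on chromosome 15 from 102144362 to 102149511. These 4 genes averaged under 1 TPM and were not tested. With genes from a mean of 0.1 TPM tested, Igfbp6 had a log2 change of -0.23 ± 0.14 (limma adjusted p = 0.295).

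The ligand gene Igf1 was expressed at a low level. It was at 3.16 and 3.59 TPM in shCtrl and at 3.71 and 4.15 TPM in shSafb. Both shSafb values lay above both shCtrl values, by less than the shCtrl libraries differed from each other at the nearest point. The log2 change of 0.19 ± 0.13 did not pass (limma adjusted p = 0.269), with a 95% interval from -0.14 to 0.53. Igf1 (ENSMUSG00000020053) lies on the plus strand of chromosome 10 from 87858265 to 87937042. Per length, Igfbp4 RNA was 231 to 263 times as abundant as Igf1 RNA, with overlapping groups. Igf2, the gene of the second IGF ligand, was at 0.0318 to 0.0429 TPM in the 4 libraries.

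Insr rose and Igf1r did not pass the test. Insr was at 34.8 and 28.6 TPM in shCtrl and at 40.7 and 41.3 TPM in shSafb. Both shSafb values lay above both shCtrl values. The means were 31.7 ± 4.38 and 41.0 ± 0.369 TPM (SD, n = 2 each), and the fold was 1.29. On the log2 scale the change was 0.39 ± 0.09 (limma adjusted p = 0.0242), with a 95% interval from 0.16 to 0.62. The log2 change was 0.27 without shCtrl replicate 2, 0.40 without shSafb replicate 1 and 0.39 without shSafb replicate 2. Each of these omissions ended the call, and only the first of them also made the change smaller. The call was also lost with no filter on low TPM (limma adjusted p = 0.0621). Over 14 alternatives the log2 change of Insr ran from 0.27 to 0.49. Insr (ENSMUSG00000005534) lies on the minus strand of chromosome 8 from 3122061 to 3279617.

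Igf1r was at 53.7 and 47.1 TPM in shCtrl and at 52.5 and 55.3 TPM in shSafb, with overlapping groups. Its log2 change was 0.12 ± 0.07 (limma adjusted p = 0.209), with a 95% interval from -0.06 to 0.30. The gene (ENSMUSG00000005533) lies on the plus strand of chromosome 7 from 67952827 to 68233668. The ratio of Igf1r to Insr, per length, was 1.54 and 1.64 in shCtrl and 1.29 and 1.34 in shSafb. Igf1r stayed the more abundant of the 2 receptor RNAs in every library.

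**Figure D3:**
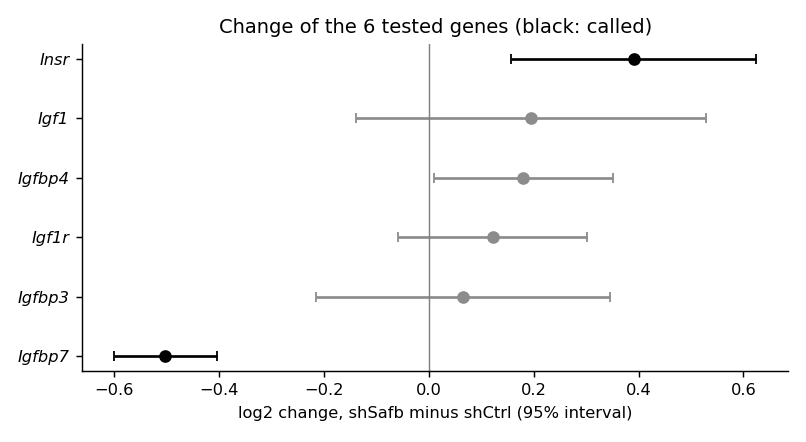
The log2 change of each tested gene (x axis, shSafb minus shCtrl, limma on log2(scaled TPM + 1)) with its 95% interval; black points passed an adjusted p of 0.05. Igfbp7 lies at -0.50 and Insr at 0.39, and the 4 grey genes lie between 0.06 and 0.19.

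Of the 10 genes, 6 were tested, and 1 rose, 1 fell and 4 did not pass. Of all 13111 tested genes 44.3% passed (21.9% higher, 22.4% lower), so 2 of 6 is no more than this background. The same 44.3% is the background for the counts of each list below, and no list was tested as a set. Groups did not overlap in 4 of the 6, where 74.7% of all tested genes had groups that did not overlap. The median log2 change of the 6 was 0.15, against 0.0016 over all tested genes, and the median size was 0.19 against 0.30.

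The other extracellular parts of the axis changed both ways. Of 12 genes on this list 6 were tested, and 2 rose, 2 fell and 2 did not pass. Tmem219, which encodes a receptor for IGFBP3, fell from 71.5 ± 2.56 to 48.1 ± 2.48 TPM (log2 change -0.54 ± 0.07, limma adjusted p = 0.00561). Igfals, encoding the acid-labile subunit that joins IGF and IGFBP3 in the blood, was 1.31-fold lower (16.4 ± 0.728 to 12.5 ± 1.31 TPM, limma adjusted p = 0.0395). Igf2r, encoding the receptor that clears IGF2, was 1.19-fold higher (53.2 ± 0.363 to 63.4 ± 0.384 TPM, limma adjusted p = 0.0149), and Lrp1, a large endocytic receptor gene, 1.20-fold higher (14.1 ± 1.04 to 17.0 ± 0.58 TPM, limma adjusted p = 0.0389). Only the Tmem219 call was kept without each library in turn. Leaving out single libraries gave adjusted p of up to 0.144 for Igfals (lost without shCtrl replicate 1, shCtrl replicate 2 or shSafb replicate 1), 0.0731 for Igf2r (lost without shCtrl replicate 1 or either shSafb library) and 0.15 for Lrp1 (lost without any of the 4). With no filter on low TPM the Igfals call was also lost (0.0687), and that of Lrp1 passed in only 4 of 14 alternatives. The IGFBP protease genes Pappa and Pappa2 averaged under 0.02 TPM.

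Growth hormone drives Igf1 in liver through its receptor, JAK2 and STAT5. Of 7 genes on this list 6 were tested, and 1 rose, 3 fell and 2 did not pass. Ghr, the growth hormone receptor gene, fell 1.73-fold, from 51.8 ± 2.31 to 29.95 ± 1.86 TPM (log2 change -0.75 ± 0.06, limma adjusted p = 0.00200). Stat5a fell from 15.3 ± 1.2 to 10.7 ± 0.338 TPM (limma adjusted p = 0.0118) and Stat5b from 28.9 ± 0.394 to 23.3 ± 1.003 TPM (limma adjusted p = 0.0296). Jak2 rose from 53.2 ± 2.38 to 63.4 ± 0.764 TPM (limma adjusted p = 0.0122). The Ghr call was kept without each library in turn. Leaving out shCtrl replicate 1 (adjusted p = 0.0504) or shSafb replicate 1 (0.0617) ended the call of Stat5a. Calls were also lost for Stat5b without any one library (0.057 to 0.134), and for Jak2 without shCtrl replicate 2 (0.0512) or either shSafb library (0.0669 and 0.0528). Socs2, a feedback target of STAT5, was at 43.9 ± 0.0923 and 46.7 ± 0.638 TPM and did not pass (limma adjusted p = 0.153).

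Of 37 receptor signalling genes, all tested, 7 rose, 6 fell and 24 did not pass. The median log2 change was 0.03. Irs2, which encodes a docking protein of both receptors, rose 2.39-fold, from 18.3 and 17.0 to 40.7 and 43.6 TPM (log2 change 1.23 ± 0.07, limma adjusted p = 8.36e-04). Irs1, its paralog, was at 17.4 ± 1.24 and 18.7 ± 0.662 TPM and did not pass (limma adjusted p = 0.232). Socs3, an inhibitor of cytokine and insulin signalling, rose 2.08-fold, from 33.9 and 33.1 to 68.9 and 70.2 TPM (log2 change 1.06 ± 0.05, limma adjusted p = 7.38e-04). The regulatory subunits of phosphoinositide 3-kinase went both ways. Pik3r3 rose from 5.79 ± 0.0151 to 14.0 ± 0.453 TPM (limma adjusted p = 0.00127), while Pik3r2 fell from 45.1 ± 4.2 to 25.1 ± 1.16 TPM (limma adjusted p = 0.00239).

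A further 8 called genes of the list were chosen after their values were seen. Rps6kb1, encoding S6 kinase, was 1.96-fold higher. Pik3r1, another regulatory subunit gene, was 1.43-fold lower, Eif4ebp1, encoding a translation repressor, 1.47-fold lower and Foxo3 1.44-fold lower. These 4 calls were kept without each library in turn. Pik3cb (1.63-fold higher) and Foxo4 (1.39-fold higher) lost theirs without either shSafb library, Akt1 (1.28-fold lower) without shSafb replicate 1, and Shc1 (1.23-fold lower) without shCtrl replicate 1 or either shSafb library, with limma adjusted p of 0.0503 to 0.0689 in these fits.

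**Figure D4:**
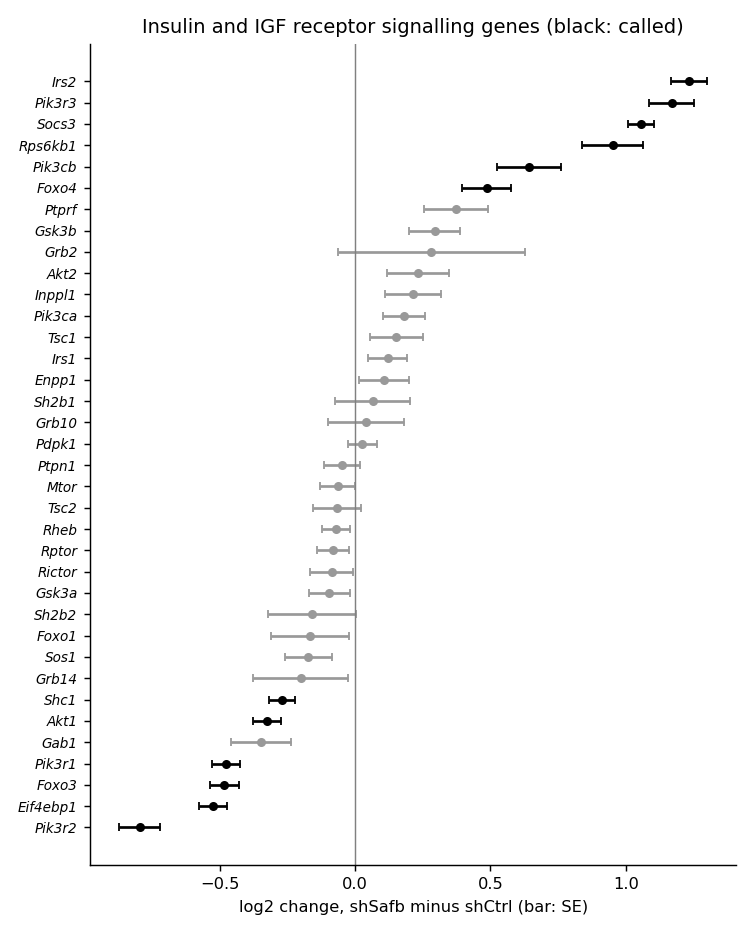
The log2 change (x axis, shSafb minus shCtrl, bars are standard errors from limma) of 36 of the 37 receptor signalling genes; black points passed an adjusted p of 0.05. Irs2, Pik3r3 and Socs3 lie above 1 on the log2 scale and Pik3r2 lies lowest at -0.80.

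Genes known to be activated by FOXO factors or repressed by insulin, the group to which Igfbp1 belongs, went both ways. Of 14 on the list 12 were tested, and 2 rose, 6 fell and 4 did not pass, with a median log2 change of -0.08. Txnip, encoding a brake on glucose uptake, fell 2.44-fold, from 378 and 371 to 156 and 152 TPM (log2 change -1.25 ± 0.04, limma adjusted p = 5.31e-04). Sesn3, encoding a stress-induced regulator of mTORC1, fell from 33.6 ± 0.825 to 12.5 ± 0.609 TPM (limma adjusted p = 7.92e-04). Pdk4, encoding a pyruvate dehydrogenase kinase, rose 2.07-fold (limma adjusted p = 0.00152), and Klf15, a transcription factor gene of gluconeogenesis, rose from 53.4 ± 0.27 to 83.3 ± 9.28 TPM (limma adjusted p = 0.0062). The number that fell dropped to 3 without shCtrl replicate 2, without shSafb replicate 1 or without shSafb replicate 2. Pck1 and G6pc, the gluconeogenic enzyme genes that insulin represses, were under 1 TPM in every library and were not tested.

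The RNA-binding proteins named for Igf2 mRNA are not IGF binding proteins. Of their 3 genes 2 rose: Igf2bp1 from 35.9 ± 1.71 to 47.9 ± 3.67 TPM (limma adjusted p = 0.0180) and Igf2bp2 from 24.1 ± 1.24 to 29.6 ± 0.318 TPM (limma adjusted p = 0.0145). Igf2bp3 was at 9.99 ± 0.238 and 8.86 ± 0.83 TPM and did not pass (limma adjusted p = 0.303). Igf2bp1 lost its call on leaving out shCtrl replicate 1 (adjusted p = 0.0713) or shSafb replicate 1 (0.0725) and with no filter on low TPM (0.0529), and Igf2bp2 on leaving out shCtrl replicate 2 (0.0587), shSafb replicate 1 (0.0644) or shSafb replicate 2 (0.0696).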

How the data were processed

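Gene values in 4 AML12 RNA libraries were used, all made from total RNA with a strand-specific kit after ribosomal RNA removal, per the labels' protocols. The unit is TPM, as the authors deposited it. HISAT2, HTSeq, StringTie and DESeq2 with mm10 are named in the submitters' processing notes, with no versions or order. TPM keeps no counts, so no counting interval is given. A library's group and number come from its title. Rows that shared an identifier (6 cases) were added up, and positions came from GENCODE mouse release 21.

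Genes with a mean of at least 1 TPM (13111) were tested. Each library was divided by its median ratio to the geometric mean, and log2(scaled TPM + 1) was fitted with limma 3.58.1 in R 4.3.3 (group only, intensity trend, two-sided), with a Benjamini-Hochberg adjusted p under 0.05 over all tested genes as the threshold. A fold change on this scale understates the change of low genes. Means and SDs were taken from the deposited TPM, and folds are ratios of these means. Promoter windows came from RefSeq (GRCm38.p6). The members and lists were chosen with earlier results of these data known. All members and Safb were named, then up to 4 called genes with the smallest p of each list; genes beyond these, such as uncalled ones, were named after their values were seen. One receptor signalling gene is counted but not reported here. Alternatives covered the pseudocount, filter, scaling, variance model, replicate block, a fold threshold and leaving out each library. Python 3.11.15, pandas 2.3.3, numpy 2.4.6, scipy 1.17.1 and matplotlib 3.10.9 were also used.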

Additional observations from a re-analysis of the deposited data

How the results depend on the processing

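Over 14 alternatives the log2 change of Igfbp7 ran from -0.53 to -0.49 and passed in all but the one that also required a fold of at least 1.5. With that fold required, 0 of the 10 genes were called higher and 0 lower, and over all genes 1303 were higher and 1408 lower, against 2867 and 2938 without it. With no filter on low TPM, 0 of the 10 genes were called higher, since Insr was lost. Leaving out 1 library gave 0 to 1 of the 10 genes higher and 1 lower each time. The 1 higher was Insr without shCtrl replicate 1 and Igfbp4 without shCtrl replicate 2. Over all genes leaving out 1 library gave 1768 to 2124 higher and 1961 to 2186 lower. The ratio of Igfbp7 to Igfbp4, shSafb minus shCtrl on the log2 scale, was -0.68 and ran from -0.78 to -0.58 without each library, a check chosen after seeing the data. Of the 31 called genes on the other lists, 16 kept the call without each library in turn and 15 lost it in at least 1 case. None of the 31 changed sign.

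Of the genes named with a test, only Igfbp3 changed direction, and it had not passed: its log2 change was -0.020 without shSafb replicate 2 and ran from -0.020 to 0.16 without each library. The cause was not tested.

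The labels give both groups the numbers 1 and 2 but do not say that a number marks a shared culture or day. Across genes the difference between replicates 1 and 2 in shCtrl had a correlation of -0.064 with that in shSafb. With a replicate block, 2540 genes were higher and 2686 lower, and Igfbp7 and Insr were still the 1 lower and 1 higher of the 10. Of the other called genes named here, the block ended the calls of Igfals and Lrp1.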
